A study of Mus musculus with 12 samples.

Results

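The regions described here are dense clusters of Nfib peaks in KP1, a mouse small cell lung cancer line. They were chosen from the KP1 peak positions alone: peaks on chromosomes 1 to 19, leaving out chromosome 4, were chained wherever the gap to the next peak was 12.5 kb or less, and chains of 4 or more peaks were kept. This gave 574 chains with 2799 peaks, which was 11.2% of the 24905 KP1 peaks (10.8 to 11.6) and 12.5% of the 22430 on the chromosomes used. The number of peaks in a chain, its length and the spacing of its peaks follow from this choice and are given as a description. The positions of peaks in a second line, KP22, played no part in the choice.

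Nfib binding was measured by chromatin immunoprecipitation with a Sigma antibody to Nfib and sequencing in 3 mouse tumor lines, 16T, KP1 and KP22, all with the genotype Trp53-/-;Rb1-/- and grown as floating spheres. By the labels, KP22 is Nfib low and the other two are Nfib high. There were 2 input and 2 pulldown libraries for each line. The peak positions (mm9) are 1 list per line, so the chains have no value per library, no read depth and no replicate error, and with 1 list per line no test between lines was possible. KP1 and KP22 are each 1 line, and the level of Nfib cannot be told apart from other differences between them. The list labelled 16T held 0 intervals and was not used.

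Nfib (nuclear factor I B) belongs to the nuclear factor I family of transcription factors, which bind DNA as dimers at palindromes of the motif TTGGC and act in lung and brain development. In mouse small cell lung cancer, Nfib is known as an oncogene that is often amplified, and it has been linked to metastasis and to more open chromatin at distal sites. Binding sites of a factor that lie close together are often grouped by joining neighbours, and a gap of 12.5 kb is a customary limit when enhancers are joined into super-enhancers. A chain of peaks is defined by position only. Height, histone marks and expression were not part of the choice.

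Most chains were small. Of the 574 chains, 319 had 4 peaks, 150 had 5, 71 had 6 or 7 and 34 had 8 to 14. The median chain was 15.3 kb long (quartiles 10.2 and 21.3), with a range from 1.24 to 73.7 kb, and 14 chains were longer than 40 kb. Together they spanned 9.56 Mb, of which 0.837 Mb lay under KP1 peaks. The median chain had 3.02 peaks per 10 kb and was covered by peaks over 9.05% of its length. Within chains the median gap between neighbours was 2756 bases (quartiles 750 and 6492), and 672 of 2225 gaps (30.2%) were of 1000 bases or less. At least 1 such gap was present in 409 chains (71.3%), and 357 of these also had a gap over 3000 bases.

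**Figure D1:**
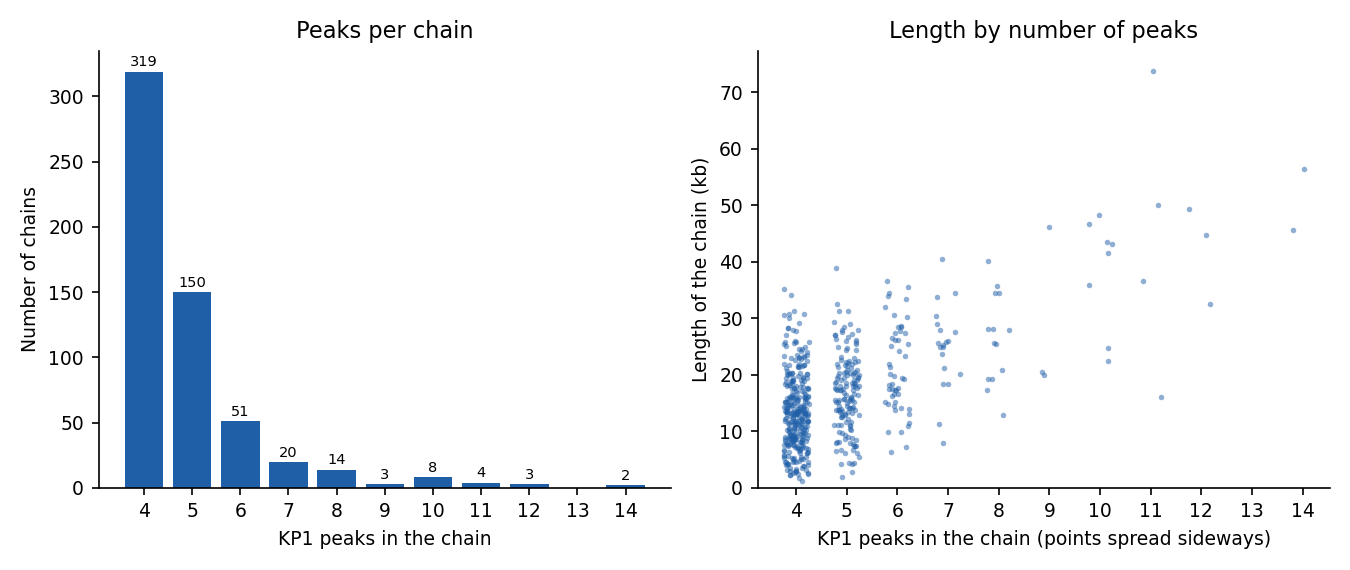
Left, the number of chains (vertical axis) with each number of KP1 peaks (horizontal axis), with the count above each bar. Right, the length of each chain in kb against its number of peaks, 1 point per chain with points spread sideways. Chains of 4 peaks number 319, and the longest chain, of 73.7 kb, has 11 peaks.

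The edge of the definition was not sharp. Just under it lay 887 rows of exactly 3 peaks, with a median length of 8.89 kb, against 13.0 kb for the chains of 4. The largest gap inside a chain was 12490 bases and the smallest gap that ended one was 12510 bases. On the chromosomes used, 295 gaps between neighbouring KP1 peaks were between 11.5 and 12.5 kb and 252 between 12.5 and 13.5 kb. The row with the most peaks was left out by the rule: 39 KP1 peaks lay between 3000036 and 3038281 on chromosome 9, with a median width of 716 bases, and 6 KP22 peaks lay in the same stretch. Repeats and mappability were not analysed here.

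The 10 chains with the most peaks lay on 6 chromosomes. The last place was shared by 8 chains of 10 peaks, with 0 to 5 KP22 peaks inside, and went to the shortest. The chain on chromosome 5 from 125614168 to 125659789 (45.6 kb) had 14 KP1 peaks of 150 to 962 bases. KP22 had 6 peaks there, and these overlapped 5 of the 14 KP1 peaks. All 6 lay in the part up to 125645419, while the last 4 KP1 peaks, from 125653295 to 125659789, had no KP22 peak. The chain on chromosome 11 from 98784565 to 98840940 (56.4 kb) also had 14 KP1 peaks. KP22 overlapped 4 of them, at 98784565, 98792250, 98804255 and 98832653, with 1 KP22 peak lying across the start of the chain. The widest KP1 peak of this chain, of 1130 bases, was not among them. Both chains held KP22 peaks over a minority of their KP1 peaks. Over all KP1 peaks on the chromosomes used, 26.8% were overlapped by a KP22 peak, so this does not set these chains apart.

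A stretch of chromosome 6 held 3 of the 10 chains with the most peaks next to each other. They ran from 99917420 to 99949997 (12 KP1 peaks), from 99963952 to 100037687 (11 peaks) and from 100063458 to 100113447 (11 peaks), each with 4 KP22 peaks inside. The middle one was the longest of all chains, at 73.7 kb, with a median gap of 7850.5 bases against 2756 over all chains. The first had its KP22 peaks at both ends: 1 over the first KP1 peak, and the others, with 1 more across its end, over peaks from 99941116 onward. In the middle chain, 1 of the 4 KP22 peaks, from 100005234 to 100005393, lay between KP1 peaks.

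The remaining chains of the 10 with the most peaks lay on chromosomes 2, 8 and 15. The chain on chromosome 15 from 85483828 to 85533246 had 12 KP1 and 6 KP22 peaks. Of these 6, 3 lay over the first pair of KP1 peaks, which are 464 and 788 bases wide and 79 bases apart, so that 1 KP1 peak corresponded to more than 1 KP22 peak. On chromosome 8, the chain from 122771862 to 122816655 had 12 KP1 peaks, 4 of them overlapped by KP22. On chromosome 2, the chain from 156895079 to 156911227 was the most compact of the 10, with 11 peaks in 16.1 kb and a median gap of 895 bases. KP22 overlapped 3 of its peaks. The chain from 166149938 to 166186593 had 11 KP1 and 3 KP22 peaks. That from 118355211 to 118377723 had 10 KP1 and 4 KP22 peaks, and all 4 lay over 4 consecutive KP1 peaks between 118368805 and 118371774.

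**Figure D2:**
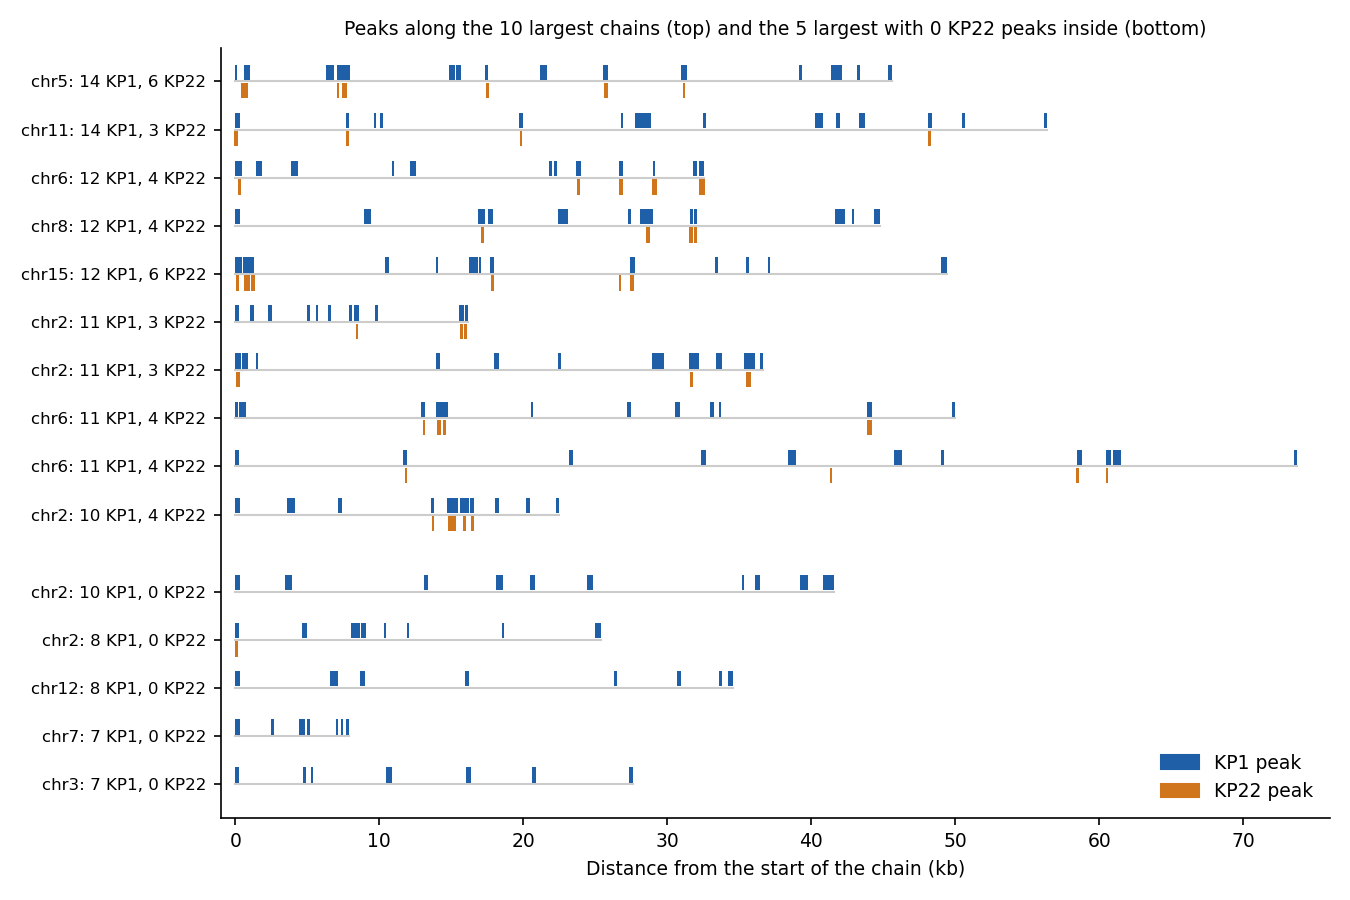
Positions of KP1 peaks (blue, above each line) and KP22 peaks (orange, below) along the 10 chains with the most KP1 peaks and, in the lower group, the 5 chains with the most KP1 peaks among those with 0 KP22 peaks wholly inside. The horizontal axis is the distance from the start of the chain in kb. Each label gives the chromosome, the number of KP1 peaks and the number of KP22 peaks wholly inside. KP22 peaks across a chain end are drawn but not counted in the label. KP22 peaks sit below a part of the KP1 peaks, from 3 to 6 per chain in the upper group, whose last place was decided among 8 chains of 10 KP1 peaks with 0 to 5 KP22 peaks.

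Chains also lay near each other. Of the 574 chains, 109 were within 100 kb of another, and the median distance to the nearest other chain was 467.5 kb. On chromosome 8, 7 chains between 122771862 and 123072315 (300.5 kb) held 48 KP1 peaks and 16 KP22 peaks. The KP22 peaks inside each of these 7 chains numbered, in order, 4, 0, 1, 1, 3, 3 and 4. On chromosome 6, 5 chains between 99831671 and 100154937 (323.3 kb), including the 3 above, held 45 KP1 and 17 KP22 peaks. The other 9 runs of at least 3 chains had exactly 3 each. They held 12 to 17 KP1 peaks and 1 to 5 KP22 peaks. The run on chromosome 11 from 88195165 to 88339054 held 17 and 1, and that on chromosome 12 from 106062703 to 106211361 held 16 and 5. Genes in the chains are not named, because mm9 gene positions were not used here.

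KP22 peaks were counted in each chain. Of the 10120 KP22 peaks, 574 lay wholly inside a chain (the number equals that of the chains by coincidence), which was 5.67% (5.23 to 6.14; exact Clopper-Pearson 95% interval, as for all shares below). A further 127 lay across the end of a chain. At least 1 KP22 peak lay inside 347 chains (60.5%): 203 chains had 1, 126 had 2 or 3, and 18 had 4 to 6. The other 227 chains had 0 wholly inside, while 182 chains had no KP22 peak with at least 1 base inside. In the chains, 4.88 KP1 peaks stood for each KP22 peak wholly inside, and 3.99 for each with at least 1 base inside. The whole lists had 2.46. A choice made on KP1 peaks raises the ratio in chains by construction, and it was not tested.

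Larger chains held more KP22 peaks. The mean number of KP22 peaks inside was 0.765 in chains of 4 peaks, 0.953 in chains of 5, 1.30 in chains of 6 or 7 and 2.79 in chains of 8 to 14. Chains with 0 KP22 peaks wholly inside made up 45.8%, 38.7%, 28.2% and 8.82% of these classes. KP22 peaks across a chain end are left out of these values and of those per 100 kb below. With such peaks counted too, at least 1 KP1 peak was overlapped in 63.3%, 68.7%, 73.2% and 94.1% of the chains of these classes. How far leaving them out weighs on the mean numbers was not tested. The median length of these classes was 13.0, 17.0, 21.95 and 34.5 kb. Per 100 kb of chain, KP22 had 5.69, 5.67 and 5.84 peaks in the first 3 classes and 8.13 in the class of 8 to 14, which has 34 chains.

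**Figure D3:**
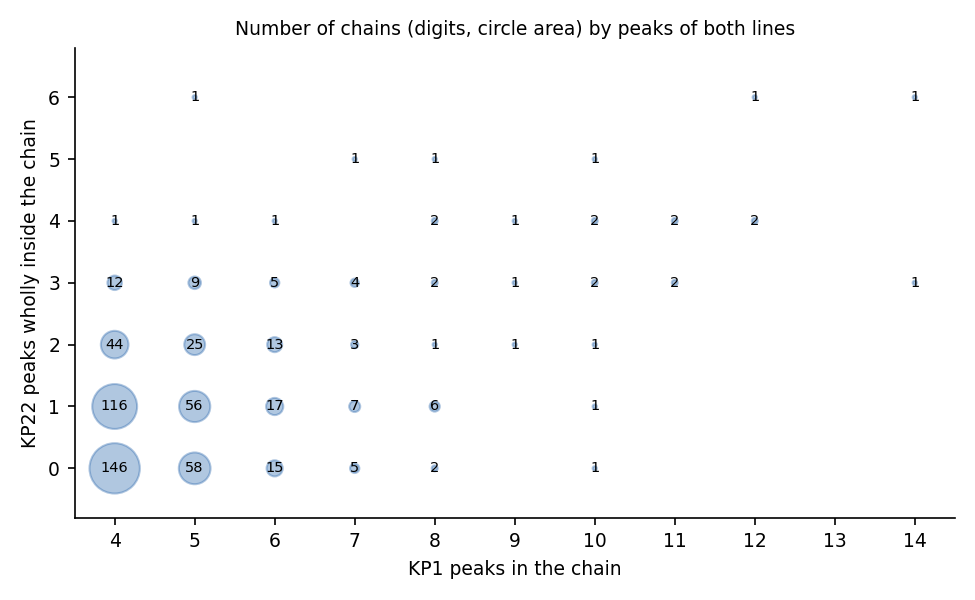
Number of KP22 peaks wholly inside a chain (vertical axis) against its number of KP1 peaks (horizontal axis). Circle area and digits give the number of chains at each combination: 146 chains of 4 KP1 peaks have 0 KP22 peaks, and 1 chain has 14 and 6.

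The chains with the most KP22 peaks differed in how far the lists matched. Besides those on chromosomes 5 and 15, the chain on chromosome 1 from 36580392 to 36605406 had 6 KP22 peaks inside and only 5 KP1 peaks. All 5 KP1 peaks, of 150 to 206 bases, were overlapped, and 2 KP22 peaks lay between KP1 peaks, from 36584793 to 36585088 and from 36585751 to 36586019. The chain on chromosome 18 from 60765429 to 60808861 had 10 KP1 and 5 KP22 peaks, and 5 KP1 peaks were overlapped. On chromosome 16, the chain from 33928897 to 33948198 had 8 and 5 peaks, and again 5 KP1 peaks were overlapped. Another chain with 5 KP22 peaks, on chromosome 2 from 91789091 to 91800427, had fewer KP1 peaks (7), of which 6 were overlapped. Every KP1 peak was overlapped in only 3 chains: that on chromosome 1, one on chromosome 8 from 123059322 to 123072315 (5 KP1 peaks) and one on chromosome 11 from 117384333 to 117398236 (4 KP1 peaks). The last 2, and that on chromosome 2, were singled out after their values were seen. At least 50% of the KP1 peaks were overlapped in 102 chains (17.8%).

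Other chains had 0 KP22 peaks inside. The largest of them, on chromosome 2 from 166255476 to 166297059 (41.6 kb), had 10 KP1 peaks with a median width of 410.5 bases, and 0 of them were overlapped. It lay 68.9 kb from the chain at 166149938, of which KP22 overlapped 3 of 11 peaks. A chain on chromosome 12 from 103855370 to 103889929 had 8 KP1 peaks, the chain on chromosome 7 from 52143697 to 52151580 had 7, and the chain on chromosome 3 from 137710834 to 137738451 had 7, all with 0 overlapped. In the chain on chromosome 2 from 179017095 to 179042484, with 8 KP1 peaks, a KP22 peak lay across the start and overlapped 1 of them. In all, 185 chains (32.2%) had 0 KP1 peaks overlapped. With a background of 26.8% of KP1 peaks overlapped on these chromosomes, most peaks have no KP22 peak anywhere, so this count alone does not set these chains apart. The absence of a peak in a list does not show the absence of binding, since peaks depend on depth and on a threshold that no source used here states.

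The KP1 peaks in chains were overlapped by a KP22 peak less often than the other KP1 peaks. Of the 2799 chain peaks, 671 were overlapped by at least 1 base, which was 24.0% (22.4 to 25.6), while the background over all 22430 KP1 peaks on the same chromosomes was 26.8%. Outside the chains, 5344 of 19631 were overlapped, which was 27.2% (26.6 to 27.9). The ratio of both shares was 0.881 (0.812 to 0.954; exact interval from the binomial split). The interval treats peaks as independent, which peaks of 1 chain are not, and this makes it too narrow. The binomial split treats the counts of overlapped peaks as rates and not as shares, which makes it wider. The net effect was not tested.

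The lower share was not particular to rows of 4 or more peaks. KP1 peaks with no neighbour within 12.5 kb were overlapped in 29.2% of 11412 cases (28.4 to 30.0). Pairs reached 25.1% (24.0 to 26.3) and rows of 3 reached 23.1% (21.6 to 24.8). Within the chains the share was 23.7% for 4 peaks, 23.1% for 5, 23.1% for 6 or 7 and 28.4% (23.6 to 33.7) for 8 to 14. The interval for 8 to 14 includes the share of peaks with no neighbour. The share in chains was 0.821 times that of peaks with no neighbour (0.755 to 0.892) and 0.979 times that of pairs and rows of 3 (0.896 to 1.07). The last interval includes 1, so no difference from the shorter rows was detectable in these lists. At matched distance to the nearest KP1 peak, the chain peaks also lay close to the others, with 23.3% against 21.2% up to 500 bases, 22.6% against 25.2% from 500 to 1000, 21.5% against 23.3% from 1000 to 3000 and 26.8% against 26.5% from 3000 bases to 12.5 kb.

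Peak width went the other way. Chain peaks were wider than the others, with a median of 253 against 227 bases, and 10.1% (8.98 to 11.3) against 5.77% (5.45 to 6.11) had at least 500 bases. The median was 220 bases in peaks with no neighbour, 242 in chains of 4 and 279 in chains of 8 to 14. Width comes from the list that chose the chains, so these values are a description. Wider KP1 peaks were overlapped more often both in and outside the chains. In the lowest quartile of KP1 peak width, from 150 to 177 bases, 12.2% (9.65 to 15.2) of chain peaks and 17.5% (16.4 to 18.5) of the others were overlapped, a ratio of 0.699 (0.540 to 0.893). In the next quartile, from 178 to 231 bases, the shares were 19.4% and 26.4%, a ratio of 0.736 (0.604 to 0.890). In the upper quartiles, from 232 to 319 bases and from 320 bases, they were 28.2% and 32.1%, with a ratio of 0.878 (0.753 to 1.02), and 31.0% and 33.7%, with a ratio of 0.921 (0.810 to 1.05). The share was thus lower in chains in each quartile, and the ratio was lowest among the narrowest peaks. Both upper quartiles had intervals that include 1, but the binomial split gives wide intervals for shares of this size. These intervals do not show that wide peaks lack the deficit. Whether the ratio itself differed between quartiles was not tested.

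**Figure D4:**
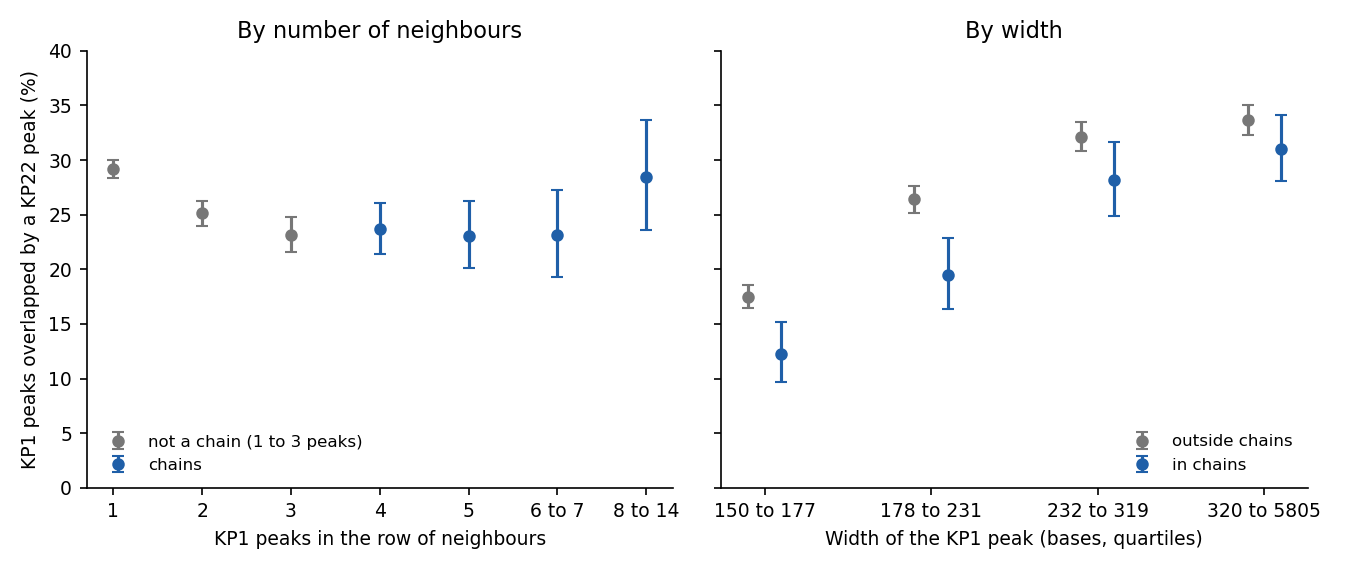
Percentage of KP1 peaks overlapped by a KP22 peak (vertical axes), with exact 95% intervals. Left, by the number of KP1 peaks in the row of neighbours, from 29.2% for peaks with no neighbour to 28.4% in chains of 8 to 14, with 23.1% at 3 peaks. Right, by quartile of KP1 peak width in bases, in chains (blue) and outside (grey): the chain peaks are lower in each quartile, at 12.2% against 17.5% in the narrowest.

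Within a chain, the peaks that KP22 held in common tended to be the wider ones. Overlapped chain peaks had a median width of 290 bases, against 240.5 for those not overlapped. Outside the chains these medians were 253 and 218 bases. The widest peak was overlapped in 189 chains (32.9%) and the narrowest in 80 (13.9%). In the 208 chains with exactly 1 overlapped peak, that peak was the widest in 65, or 31.3% (25.02 to 38.02). Picking a peak without regard to width would give 22.4% at these chain sizes. A wide interval also has more bases that can be overlapped.

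A peak that followed an overlapped one was itself overlapped somewhat more often than a peak that followed one without overlap. Within chains, 28.4% (24.6 to 32.4) of peaks that followed an overlapped peak were overlapped too, against 21.6% (19.7 to 23.7) of those that followed a peak not overlapped. A KP22 peak that touches a pair of KP1 peaks counts for both. First and last peaks of chains were overlapped in 25.5% of 1148 cases (23.0 to 28.1) and inner peaks in 22.9% of 1651 (20.888 to 24.999), and these intervals overlap.

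Seen from KP22, nearly all of its peaks in chains fell on KP1 peaks. Of the 574 KP22 peaks wholly inside, 541 overlapped a KP1 peak, which was 94.3% (92.0 to 96.0), against 64.2% (63.2 to 65.3) of the 8327 KP22 peaks that touched no chain. Chains were chosen for many KP1 peaks, so this share has no test. KP1 peaks covered only 0.837 of the 9.56 Mb of chain, yet 33 KP22 peaks fell in the gaps. These gaps measured 8.72 Mb and held 3.78 such peaks per Mb, against 1.33 per Mb outside the chains and away from KP1 peaks. The territory outside runs from the first to the last KP1 peak of each chromosome. Stretches where no peak can be called were not taken out of it, so these rates have unlike bases. The centres of overlapping KP1 and KP22 peaks were a median of 37.5 bases apart in chains (682 pairs) and 31.5 outside (5382 pairs). In chains the KP1 peak of a pair was wider, with a median ratio of 1.14, while outside the ratio was 1.00. KP22 peaks wholly inside chains had a median width of 240.5 bases, against 225 for those that touched no chain.

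The same rule applied to KP22 gave few chains. KP22 had 29 chains with 125 peaks, 1.24% of its list, and 24 of them had 4 peaks. Their median length was 13.6 kb. Of the 29, 18 overlapped a KP1 chain (62.1%), and 18 of the 574 KP1 chains overlapped a KP22 chain (3.14%). No background share was computed for stretches as long as these chains. Of the 125 peaks, 79.2% (71.0 to 85.9) overlapped a KP1 peak, against 66.5% (65.5 to 67.4) of the other 8903 KP22 peaks. The ratio was 1.19 (0.967 to 1.45, from the binomial split). The largest KP22 chain, of 7 peaks, was that on chromosome 1 from 36580426 to 36605421. The next, each of 6 peaks, matched the KP1 chains on chromosome 8 from 123059322 and on chromosome 5 from 125614168. A KP22 chain of 5 peaks on chromosome 17, from 39980047 to 39985660, fell on 1 single KP1 peak, so it formed no chain in KP1. Its KP22 peaks had a median width of 623 bases, and whether the stretch is a repeat or holds separate binding sites was not analysed. The number of peaks listed for a stretch bears on which chains the rule gives. With KP1 peaks up to 500 bases apart joined into 1, the KP1 chains numbered 391. A list with fewer peaks also gives fewer chains by construction, and the numbers of chains were not compared by a test.

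The densest chain lay on chromosome 10 from 120862789 to 120864026: 4 KP1 peaks of 150 to 159 bases in 1.24 kb, with gaps of 63 to 338 bases, and 0 of them were overlapped. In all, 13 chains were shorter than 3 kb. KP22 overlapped 8 of their 54 KP1 peaks, or 14.8% (6.62 to 27.1), an interval that includes the share of all chain peaks and the background. Of the 13 chains, 6 had 0 overlapped.

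Chains were spread over the 18 chromosomes unevenly. Chromosome 11 had 65 chains, with 18.5% of its KP1 peaks in them, followed by chromosome 5 with 58 chains (16.4%) and chromosome 2 with 64 (15.6%). Chromosome 3 had 13 chains (5.70%) and chromosome 13 had 23 (8.40%). Chromosome 11 had 14.9 KP1 peaks per Mb and chromosome 3 had 6.76. Chromosome 14 had fewer, 6.15 per Mb, but a higher share in chains than chromosome 3, 9.01%. Whether the number of peaks per Mb accounts for the uneven spread was not tested. Chromosome 4, which the rule leaves out, had 104 chains by the same steps, with 27.1% of its 2147 peaks and up to 27 peaks in a chain.

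The share of overlapped peaks in chains was the lower one on most chromosomes. It was lower in chains than outside on 15 of 18 and higher on chromosomes 6, 14 and 17. The intervals in and outside the chains were separate only on chromosome 19. The lowest ratio was 0.457 on chromosome 19, where 14.3% (7.61 to 23.6) of 84 chain peaks and 31.3% (27.3 to 35.4) of the others were overlapped. On chromosome 3, 9 of 60 chain peaks were overlapped (7.10% to 26.6%), against 28.2% (25.4 to 31.1) outside. The highest ratio was 1.40 on chromosome 17, with 34.2% (25.5 to 43.8) of 111 chain peaks against 24.4% (21.7 to 27.3). With each chromosome left out in turn, the pooled ratio ran from 0.861 to 0.895.

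**Figure D5:**
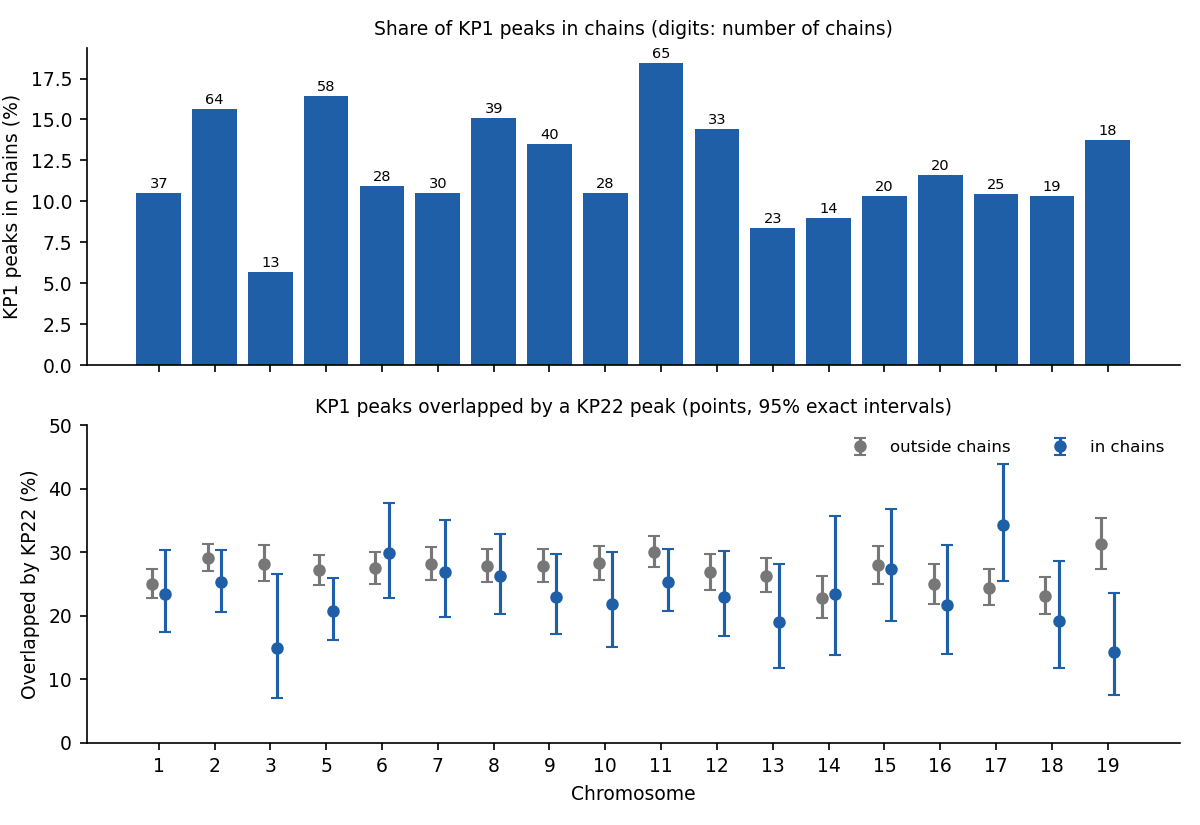
Top, the percentage of the KP1 peaks of each chromosome that lie in chains, with the number of chains above each bar. Bottom, the percentage of KP1 peaks overlapped by a KP22 peak in chains (blue) and outside (grey), with exact 95% intervals. Chromosome 11 has the highest share of peaks in chains (18.5%), and the blue point lies above the grey one on chromosomes 6, 14 and 17.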

How the data were processed

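Peak positions of KP1 and KP22 were taken from the lists the authors deposited. Other values, such as scores, are blank there. Per the submitters' processing notes, the tools were Bowtie2, MACS2, DESeq2 and DESeq and the build was mm9. The notes give neither versions nor roles. Peak thresholds and any pooling of replicates are not given in the sources used here. No position stands in the authors' table of merged regions, which was not used. Starts were counted from 1.

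Chains, overlaps (at least 1 base) and exact 95% intervals were computed with scipy 1.17.1, numpy 2.4.6 and pandas 2.3.3 under Python 3.11.15, and figures were made by matplotlib 3.10.9. Peaks of chromosome 9 that start below 3.1 Mb were left out of all comparisons. The steps were tested on simulated data: 588 of 588 planted chains among 11543 intervals were recovered. Named chains were the 10 with the most KP1 peaks, the 5 with the most KP22 peaks, the 5 with the most KP1 peaks among those with 0 KP22 peaks inside, the longest and the densest. Ties went to the shorter chain, or for KP22 peaks to the chain with more KP1 peaks. These ties were of 8 chains with 10 KP1 peaks for 1 place, 3 with 5 KP22 peaks for 2 places and 5 of 7 KP1 peaks with 0 KP22 peaks for 2 places. The members and the alternatives were chosen with earlier results of these data known. Comparisons by number of neighbours, distance, width and chromosome left out were added after seeing the data.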

Additional observations from a re-analysis of the deposited data

How the results depend on the processing

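The number and extent of chains moved with the definition more than the share of overlapped chain peaks did. With gaps of up to 10000 bases, 8.89% of KP1 peaks lay in chains and 4.46% of KP22 peaks lay inside. With 15000 bases these were 13.6% and 7.12%. A minimum of 3 peaks gave 1461 chains with 21.9% and 10.1%, and a minimum of 5 gave 255 with 6.12% and 3.26%. With chromosome 4 included the shares were 13.6% and 7.18%. Without the KP1 peaks of the narrowest width, 150 bases, they were 10.1% and 4.90%. With KP1 peaks up to 500 bases apart joined, they were 7.98% and 4.32%, and 25.7% of chain peaks were overlapped. KP22 peaks whose midpoint lay inside were 6.87% of the list, and those with at least 1 base inside 6.93%. An overlap of 50% of both peaks lowered the share of overlapped chain peaks to 18.6%, its ratio to the peaks outside to 0.811 and its ratio to peaks with no neighbour to 0.742. The ratio to the peaks outside stayed below 1 in these alternatives. The ratio to shorter rows of neighbours had an interval that included 1 in each of the alternatives run for it. Shorter rows are pairs and any longer rows below the minimum number of peaks for a chain, so they change with that minimum.

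No paired analysis was possible because the lists hold no value per library, and leaving out each replicate was not run for the same reason. Depth per library is unknown, so its part in the difference between the lists was not tested.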
